A study of Sus scrofa with 9 samples.

Results

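Genes of ribosome biogenesis and of the nuclear pore were followed across pig esophageal glands, the squamous lining above them and spheroids grown from the glands. The members were the genes whose symbol begins with or equals a fixed set of family names (NOP, UTP, RRP, POLR1, NOL, GNL and NUP with a number or letter, and BOP1, PES1, FBL, DKC1, NCL, NPM1, NAT10, PNO1, WDR12, WDR36, WDR43, WDR75 and AAAS). The rule used symbols and no difference between groups, and it found 51 of the 12217 genes measured by a probe set with a single gene symbol. By their known roles, 34 of these act in making ribosomes and 15 are nuclear pore proteins. The other 2, NOL4 and NOL4L, share only the letters of the symbol and are described apart. Some known family members, among them FBL, NOP58, RRP9 and NUP93, are not analysed here.

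The study profiled 9 samples on Affymetrix PorGene-1_0-st arrays, 1 sample per array and 3 biological replicates per group. The ESMG group held esophageal submucosal glands, which secrete mucus and fluid, and the squamous group held the overlying stratified lining; both came from control pigs 37, 39 and 40. The third group held spheroids derived from ESMG of animals labelled pig 1, 2 and 3, cultured in growth factor reduced Matrigel under Advanced DMEM/F12 with 10 mM HEPES, B27, N2 and 50 ng/ml recombinant human EGF. The sources used here name neither breed, age, sex nor passage number, and do not tie pigs 1, 2 and 3 to the tissue animals. RNA kits also differed between tissue and spheroids, so kit and culture cannot be told apart.

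Ribosomes are built in the nucleolus. RNA polymerase I transcribes the long ribosomal RNA precursor, small nucleolar ribonucleoproteins (snoRNPs) modify it, and separate sets of assembly factors fold and cut the parts that become the small (40S) and large (60S) subunits. The finished subunits leave through nuclear pores, channels of nucleoporins arranged as an outer ring, an inner ring, a central channel of flexible repeat proteins, cytoplasmic filaments and a nuclear basket. Demand for ribosomes rises in growing and dividing cells, and such epithelial cells sit mainly in the basal layers of a squamous lining and in the ducts of glands.

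All levels below are log2 RMA values, so a difference of 1 is a doubling on that scale, and levels are compared between arrays and never between genes. A gene is said to pass when its two-sided Benjamini-Hochberg adjusted p over all 12217 genes in limma's moderated test was under 0.05, and to be called when it also differed at least 2-fold. Where a call is said to be lost, the gene no longer passed, whatever its fold. Counts at an unadjusted p under 0.05 stand without the share of all genes, which was not computed. The array medians ran from 6.84 to 7.04. The labels were checked with marker lists: 7 of 7 measured gland markers were called higher in ESMG than in squamous tissue, while the 3 measured squamous markers gave 0 calls between these tissues. Spheroids were low in most markers of non-epithelial cells: 8 of 8 fibroblast and matrix genes, 5 of 5 smooth muscle genes and 5 of 5 endothelial genes were called lower than in ESMG. The leukocyte list was split: 4 of 7 genes were called lower than in ESMG and 1 passed as higher. Against squamous tissue, 3 leukocyte genes were called lower and 2 were called higher. The mean level of the fibroblast list was 7.04 to 7.80 on the spheroid arrays, 11.32 to 11.84 on the ESMG arrays and 11.66 to 11.77 on the squamous arrays; that of the smooth muscle list was 6.17 to 6.58, 10.38 to 10.88 and 11.29 to 11.66. The endothelial list lay at 6.49 to 6.63 on the spheroid arrays, 8.54 to 8.64 on the ESMG arrays and 8.42 to 8.75 on the squamous arrays, and the leukocyte list at 7.08 to 7.16, 7.85 to 9.01 and 7.46 to 8.09. Epithelial markers moved as well: 3 of 7 gland markers and 2 of 3 squamous markers were called lower in spheroids than in ESMG. In each list, 1 other marker passed as higher. The gland list lay at 9.40 to 9.63 in spheroids, 10.58 to 11.35 in ESMG and 7.44 to 8.31 in squamous tissue, and the squamous list at 9.50 to 9.90, 11.29 to 12.02 and 12.12 to 12.35. The proliferation list (4 genes measured) lay at 9.16 to 9.20 in spheroids, above 7.65 to 7.78 in ESMG and 7.78 to 8.22 in squamous tissue, and 3 of its 4 genes passed as higher in spheroids than in ESMG. These lists move with every spheroid difference below, and their part in it was not tested. Between the tissues, 3 of 5 smooth muscle genes passed as lower in ESMG than in squamous tissue and 0 as higher. Of the smooth muscle genes, 2 were called lower, while 1 of 7 leukocyte genes was called higher in ESMG. The part of tissue makeup in the differences between ESMG and squamous tissue was not tested either. In bulk RNA, more cells expressing a gene and more RNA per cell cannot be told apart.

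Most of the 51 members were highest in spheroids and lowest in ESMG. Spheroids had the highest group mean for 40 members, squamous tissue for 9 and ESMG for 2; over all genes, spheroids were highest for 46.8%. ESMG had the lowest mean for 36 members, against 39.7% of all genes. With each gene centred on its own mean, the median member stood at 0.25, 0.20 and 0.35 on the 3 spheroid arrays, at -0.15, -0.24 and -0.28 on the ESMG arrays of pigs 37, 39 and 40, and at -0.06, -0.20 and 0.04 on the squamous arrays. Every spheroid array therefore lay above every tissue array on this median, and the squamous arrays spread the most.

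**Figure D1:**
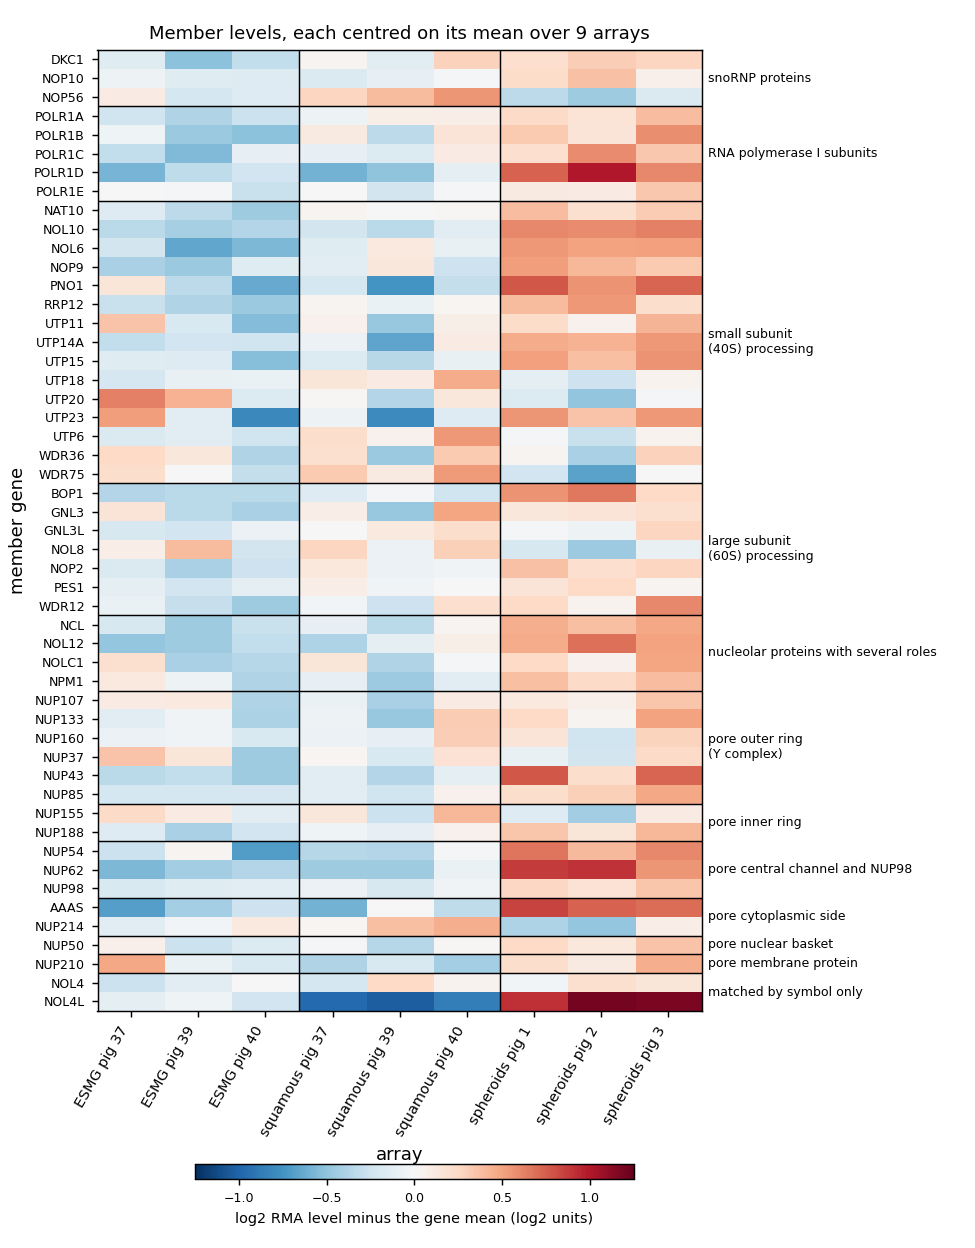
Log2 RMA level of each of the 51 genes on each of the 9 arrays (columns), minus the gene's mean over the arrays, in log2 units by colour; rows are grouped by role and vertical lines part the groups of 3 arrays. Red prevails in the 3 spheroid columns, with NOP56, WDR75, UTP20, NOL8 and NUP214 among the rows that are blue there on at least 2 of the 3 arrays.

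The heat map of centred levels shows that the rise was broad but not shared by all members. Against ESMG, 27 of 51 members (52.9%) passed as higher in spheroids, where 23.9% of all genes did, and 0 passed as lower, where 17.6% of all genes did; at an unadjusted p under 0.05 the same limma fit had 32 higher and 1 lower. Only 4 members (7.84%) reached 2-fold (NUP62, AAAS, POLR1D and NOL4L), a share close to the 7.99% of all genes called higher; 0 were called lower, against 8.91% of all genes. The median difference was 0.55, against 0.09 over all genes, and the members ran from -0.52 to 1.24. The arrays of the groups did not overlap, with spheroids higher, for 33 members (64.7%; 30.3% of all genes). The rise was thus frequent and mostly under 2-fold, and the number past 2-fold depended on scaling and on a single array. It was 9 with array medians set equal, 3 with cyclic loess and 7 without spheroid pig 2. Shares of all genes under these settings are not given here, so these counts cannot be set against the 7.99%. Equal medians also raised the median difference of all genes to 0.20. Without ESMG pig 40, 2 members (UTP20 and NOL8) passed as lower.

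Against squamous tissue, 22 members (43.1%) passed as higher in spheroids (23.6% of all genes) and 3 (5.88%) passed as lower (17.4% of all genes): NOP56, WDR75 and NUP214. Called higher were 5 members (9.8%; 8.61% of all genes), namely NOL4L, POLR1D, PNO1, NUP62 and AAAS, and 0 were called lower (8.05% of all genes; 6 members were lower at an unadjusted p under 0.05 in the same limma fit). The median difference was 0.35, against 0.03 over all genes, with a range from -0.72 to 2.05, and 29 members (56.9%; 28.6% of all genes) had all spheroid arrays above all squamous arrays. Of the 3 lower members, 1 was left without squamous pig 40, without spheroid pig 1 or without spheroid pig 2. Both comparisons use the same spheroid arrays, so their values below are not independent of each other. Across both tissues at once, all 3 spheroid arrays lay above all 6 tissue arrays for 27 members (52.9%; 23% of all genes) and below them for 0 (15.9% of all genes).

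**Figure D2:**
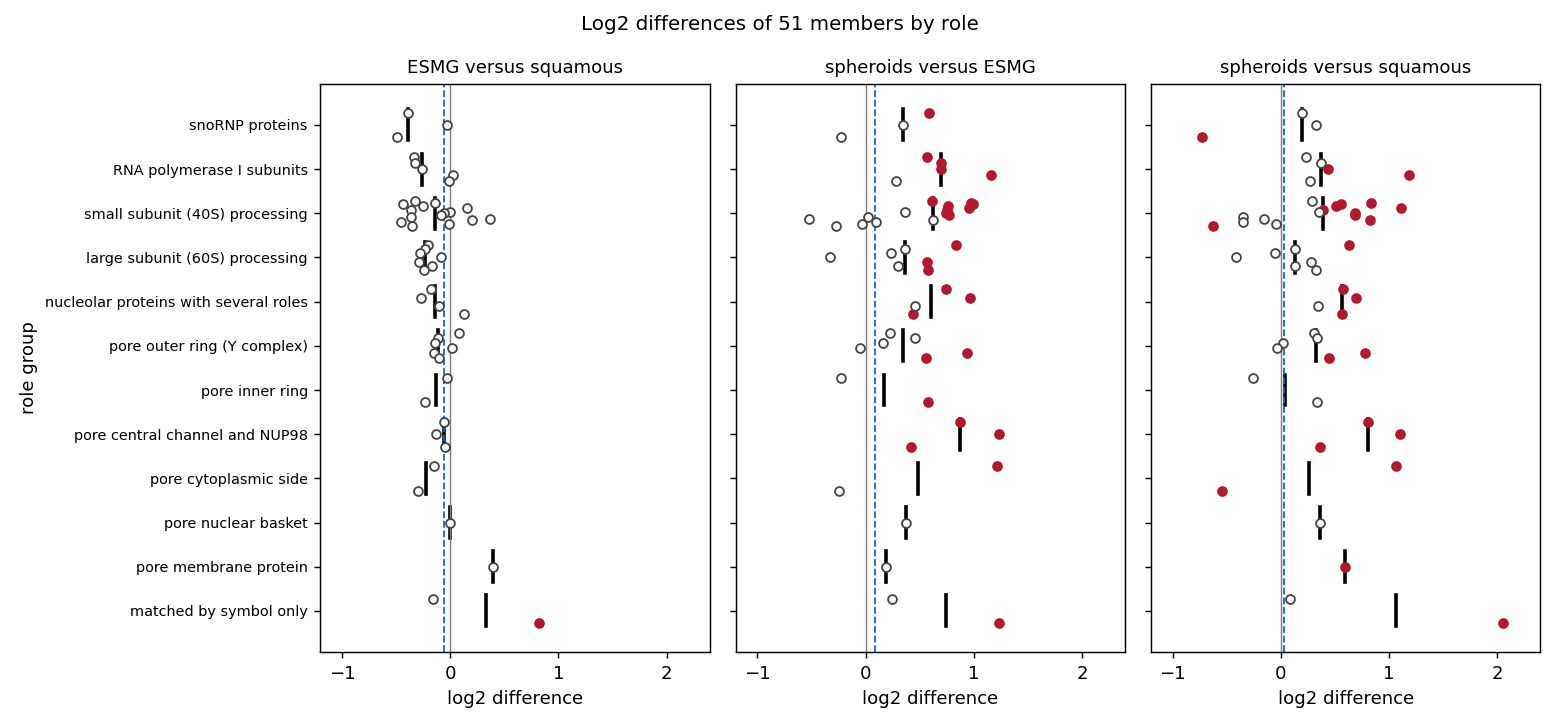
Log2 difference (horizontal axis) of each of the 51 genes in the 3 comparisons (panels), by role (vertical axis). Red points passed at an adjusted p under 0.05, open points did not; the black bar is the median of the role group and the dashed blue line the median of all 12217 genes. Points in the spheroid panels lie mostly right of the dashed line, and 1 gene (NOL4L) is red in the left panel.

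The plot of differences by role starts with the 3 snoRNP proteins measured. Of these, 1 passed as higher in spheroids than in ESMG (23.9% of all genes). Another 1 passed as lower than in squamous tissue (17.4% of all genes). DKC1, the pseudouridine synthase of the H/ACA snoRNPs, lay at 8.52, 8.15 and 8.36 in ESMG of pigs 37, 39 and 40, at 8.71, 8.53 and 8.96 in squamous tissue of the same pigs, and at 8.88, 8.98 and 8.93 in spheroids of pigs 1, 2 and 3. Spheroids stood above every ESMG array and overlapped with squamous tissue. DKC1 rose by 0.59 (SE 0.15; adjusted p 0.00854) over ESMG, and its difference from squamous tissue was 0.20 (adjusted p 0.349). NOP10, a small H/ACA protein, was 0.35 above ESMG and did not pass (adjusted p 0.0522).

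NOP56, a core protein of the box C/D snoRNPs that guide ribose methylation, was highest in the squamous lining. Its levels were 9.83, 9.50 and 9.57 in ESMG, 9.99, 10.12 and 10.28 in squamous tissue, and 9.39, 9.28 and 9.55 in spheroids. The squamous arrays lay above all other arrays, and ESMG and spheroids overlapped. Spheroids were 1.65-fold below squamous tissue (log2 difference -0.72, SE 0.15; adjusted p 0.00187), and this held under every alternative, from -0.89 to -0.60. The difference between spheroids and ESMG was -0.23, with a 95% interval from -0.55 to 0.09.

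Of the 5 RNA polymerase I subunits measured, 4 passed as higher in spheroids than in ESMG (23.9% of all genes). Against squamous tissue, 2 passed as higher (23.6% of all genes). POLR1D, a subunit shared with RNA polymerase III, changed the most. It measured 9.22, 9.48 and 9.55 in ESMG, 9.21, 9.30 and 9.68 in squamous tissue, and 10.53, 10.80 and 10.39 in spheroids. Both tissues overlapped, and every spheroid array exceeded them. The rise was 2.23-fold over ESMG (log2 1.16, SE 0.17; adjusted p 0.000228) and 2.27-fold over squamous tissue (adjusted p 0.000194). POLR1C, the other subunit shared with RNA polymerase III, rose by 0.70 over ESMG (adjusted p 0.00435) and by 0.43 over squamous tissue, where its adjusted p of 0.0498 was just under the threshold and was lost without any 1 of the arrays of squamous pigs 37 and 39, ESMG pig 37 and spheroid pigs 1, 2 and 3.

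The large catalytic subunits POLR1A and POLR1B passed against ESMG and did not pass against squamous tissue. POLR1B measured 8.38, 7.97 and 7.92 in ESMG, 8.55, 8.11 and 8.60 in squamous tissue, and 8.76, 8.60 and 9.02 in spheroids, where the lowest spheroid array met the highest squamous array. Its difference was 0.70 from ESMG (SE 0.19; adjusted p 0.00968) and 0.37 from squamous tissue (adjusted p 0.137). POLR1A differed by 0.57 (adjusted p 0.00371) and 0.23 (adjusted p 0.173) in the same order. POLR1E was 0.28 above ESMG and did not pass (adjusted p 0.135). The array annotation also carries older symbols for polymerase I subunits, which the rule does not match and which were looked up after the values were seen: ZNRD1 was 0.51 higher in spheroids than in ESMG (adjusted p 0.0171) and TWISTNB 0.35 (adjusted p 0.164).

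Among 15 small subunit factors, 8 passed as higher in spheroids than in ESMG and 0 as lower (23.9% and 17.6% of all genes). Against squamous tissue, 8 passed as higher and 1 as lower (23.6% and 17.4% of all genes). The 8 higher than in ESMG were NOL6, NOL10, PNO1, NOP9, UTP15, RRP12, UTP14A and NAT10. PNO1, which helps shape the end of the small subunit RNA late in assembly, was the only one called against squamous tissue. It measured 8.68, 8.20 and 7.90 in ESMG, 8.31, 7.78 and 8.24 in squamous tissue, and 9.30, 9.09 and 9.26 in spheroids. The tissue arrays spread widely while the spheroid arrays lay close together above them. PNO1 rose 1.94-fold over ESMG (log2 0.96, SE 0.21; adjusted p 0.00285) and 2.16-fold over squamous tissue (adjusted p 0.00111).

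NOL6, a factor of the early small subunit particle, followed the order ESMG, squamous tissue, spheroids. Its levels were 7.42, 7.00 and 7.09 in ESMG, 7.49, 7.77 and 7.55 in squamous tissue, and 8.19, 8.14 and 8.15 in spheroids, and no array of one group overlapped with another group. The rise in spheroids was 1.00 over ESMG (1.99-fold, SE 0.15; adjusted p 0.000225) and 0.56 over squamous tissue (adjusted p 0.00967). The difference between ESMG and squamous tissue, -0.44, did not pass (adjusted p 0.118). NOL10, also of the small subunit pathway, rose by 0.98 (SE 0.12; adjusted p 6.79e-05) over ESMG and by 0.84 over squamous tissue (adjusted p 0.000206).

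The other passing factors rose by 0.61 to 0.77 over ESMG: NAT10, which acetylates small subunit RNA, by 0.61, UTP14A by 0.74, RRP12, which aids export of the subunit, by 0.76, and NOP9 and UTP15 by 0.77 each. UTP15 has a second probe set that differed by 0.08 from ESMG and by -0.29 from squamous tissue. On the mean of both, its difference was 0.42 from ESMG (adjusted p 0.188) and 0.20 from squamous tissue (adjusted p 0.567). Its calls in both comparisons were thus lost there. The remaining 7 factors did not pass against ESMG, and their differences were 0.62 for UTP23, 0.36 for UTP11, 0.10 for UTP6, 0.02 for UTP18, -0.03 for WDR36, -0.27 for WDR75 and -0.52 for UTP20. UTP20, a very large protein of the early particle, had an adjusted p of 0.0791 there.

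Against squamous tissue the small subunit factors went both ways. WDR75, part of the complex that starts small subunit assembly on the nascent RNA, was 0.62 lower on the log2 scale in spheroids (difference -0.62, SE 0.20; adjusted p 0.0262), with 8.97, 8.76 and 9.18 on the squamous arrays and 8.41, 7.98 and 8.65 on the spheroid arrays. Its call was lost with array medians set equal (adjusted p 0.0925) and without squamous pig 37 or 40 or spheroid pig 1 or 2. UTP6 and UTP18, which sit together in another early complex, differed by -0.35 each and did not pass (adjusted p 0.0938 and 0.0767), although all their spheroid arrays lay under all squamous arrays. UTP23 was 0.82 higher in spheroids (adjusted p 0.0409), a call lost without squamous pig 39 or 40 or any 1 of the spheroid arrays. RRP12 was 0.39 higher (adjusted p 0.0339), a call lost without any 1 of the squamous arrays or spheroid pig 1 or 2. NOP9 was 0.51 higher (adjusted p 0.018), a call lost without squamous pig 37 or 40 or spheroid pig 1. The calls of UTP23 and RRP12 were also lost with quantile normalization and with cyclic loess.

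Of the 7 large subunit factors, 3 passed as higher in spheroids than in ESMG (23.9% of all genes) and 1 as higher than in squamous tissue, which is no excess over the 23.6% of all genes. BOP1 forms a complex with PES1 and WDR12 that is needed to process the large subunit RNAs, and it moved the most of the 3. Its levels were 8.03, 8.06 and 8.06 in ESMG, 8.24, 8.39 and 8.14 in squamous tissue, and 8.96, 9.06 and 8.64 in spheroids, with no overlap between any groups. BOP1 rose by 0.84 over ESMG (SE 0.14; adjusted p 0.000638) and by 0.63 over squamous tissue (adjusted p 0.00409).

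Its partners differed less from ESMG: WDR12 by 0.57 (adjusted p 0.0242), a call lost without ESMG pig 39 or 40 or spheroid pig 1 or 3, and PES1 by 0.30 (adjusted p 0.0751). The WDR12 call was also lost with cyclic loess. NOP2, a methyltransferase of the large subunit RNA, rose by 0.57 over ESMG (adjusted p 0.00432). The GTPases GNL3 (nucleostemin) and GNL3L differed by 0.36 (adjusted p 0.238) and 0.23 (adjusted p 0.208), and NOL8 by -0.33 (adjusted p 0.172). For GNL3 the spheroid arrays were tight, at 8.16, 8.18 and 8.22, while the squamous arrays ran from 7.54 to 8.52 around them.

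Of the 4 nucleolar proteins with several roles, 3 passed as higher in spheroids than in ESMG (23.9% of all genes). Also 3 passed as higher than in squamous tissue (23.6% of all genes). NCL (nucleolin), which binds nascent ribosomal RNA, measured 8.66, 8.42 and 8.58 in ESMG, 8.76, 8.53 and 8.90 in squamous tissue, and 9.32, 9.24 and 9.34 in spheroids. The spheroid arrays were above all tissue arrays, by 0.75 over ESMG (SE 0.14; adjusted p 0.00117) and 0.57 over squamous tissue (adjusted p 0.00632). NOL12, an RNA-binding nucleolar protein, measured 7.55, 7.59 and 7.73 in ESMG, 7.65, 7.92 and 8.11 in squamous tissue, and 8.50, 8.72 and 8.54 in spheroids. Its rise was 0.97 over ESMG (SE 0.15; adjusted p 0.000307) and 0.69 over squamous tissue (adjusted p 0.00284), with spheroids again apart from both tissues.

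NPM1 (nucleophosmin), a histone and ribosomal protein chaperone, lay near the threshold. Its levels were 11.29, 11.11 and 10.80 in ESMG, 11.07, 10.72 and 11.02 in squamous tissue, and 11.54, 11.41 and 11.56 in spheroids. The spheroid arrays stood above all tissue arrays, but the difference from ESMG, 0.44 (SE 0.16), had an adjusted p of 0.0471, and the call was lost without any 1 array other than ESMG pig 37 and squamous pig 39. The call against ESMG was also lost with quantile normalization and with cyclic loess. Against squamous tissue NPM1 rose by 0.57 (adjusted p 0.0142), a call lost without squamous pig 39 or spheroid pig 1. NOLC1, a chaperone of snoRNPs, measured 8.70, 8.10 and 8.14 in ESMG, 8.66, 8.12 and 8.48 in squamous tissue, and 8.75, 8.56 and 8.99 in spheroids; it overlapped with squamous and ESMG arrays and did not pass against ESMG (0.46, 95% interval 0.01 to 0.90; adjusted p 0.0927).

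**Figure D3:**
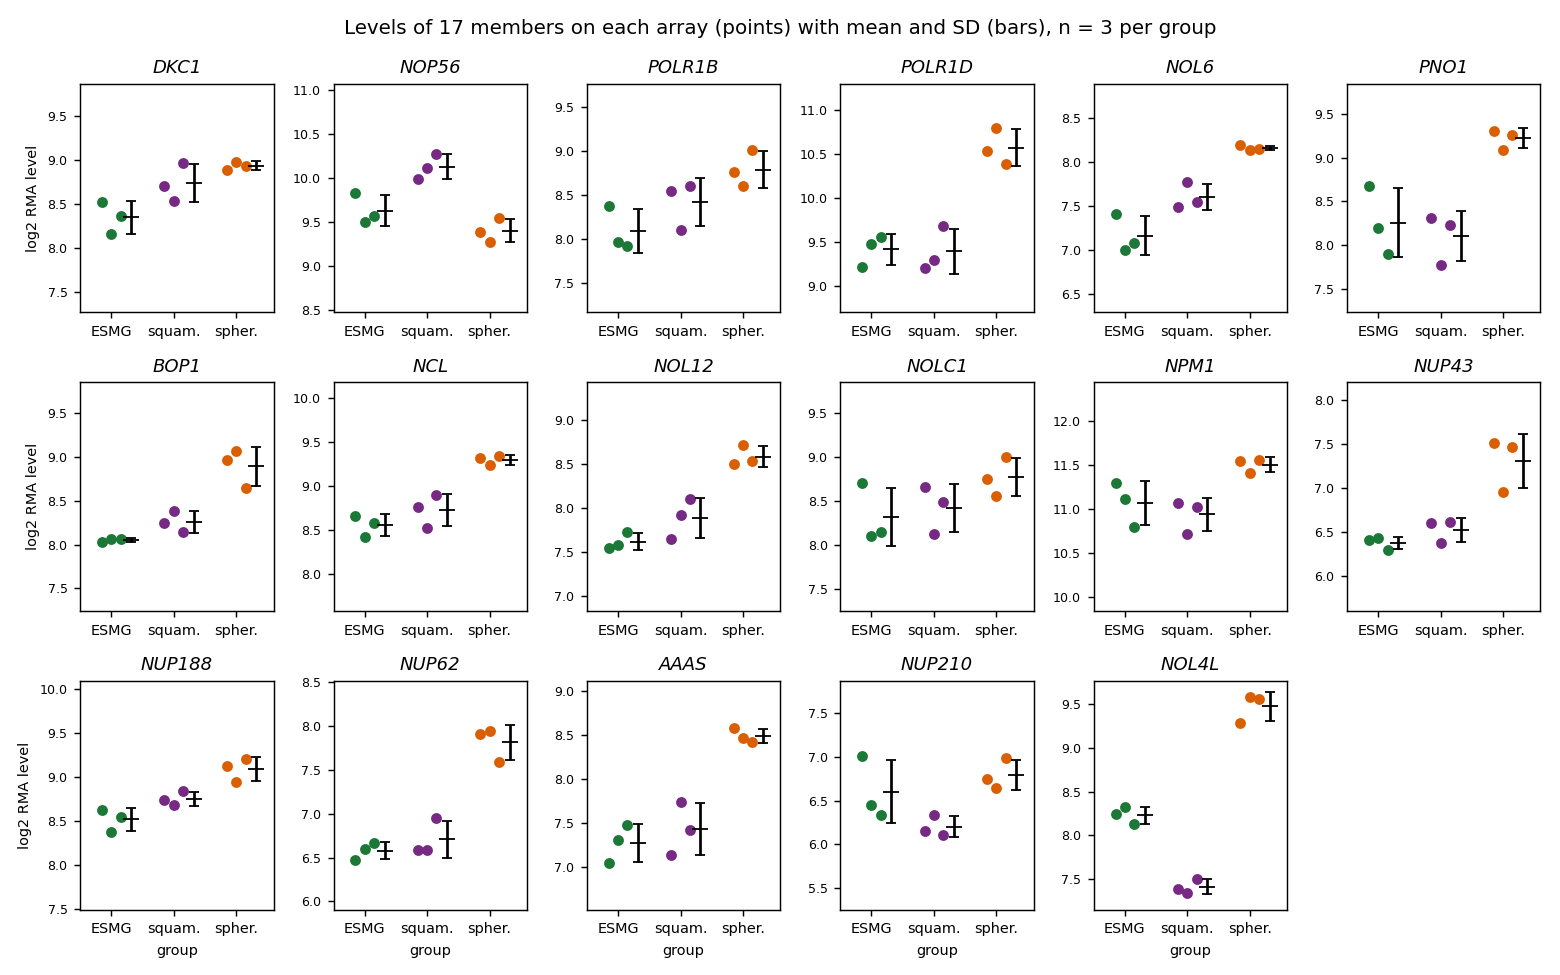
Log2 RMA level (vertical axis, own range per panel with a common span) of 17 genes in ESMG, squamous tissue and spheroids; each point is 1 array, and the bars beside the points are the group mean and SD (n = 3). In the POLR1D, NUP62, AAAS, PNO1 and NOL4L panels the spheroid points lie clear above both tissues; in the NOP56 panel they lie under the squamous points and overlap with ESMG.

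The plot of single array levels includes 5 nucleoporins. Of the 15 measured, 7 passed as higher in spheroids than in ESMG and 0 as lower (23.9% and 17.6% of all genes). Against squamous tissue, 7 passed as higher and 1 as lower (23.6% and 17.4% of all genes). In the central channel, all 3 measured genes (NUP54, NUP62 and NUP98, which also links channel and scaffold) passed in both comparisons. NUP62, a repeat protein through which cargo receptors move, measured 6.47, 6.60 and 6.67 in ESMG, 6.59, 6.59 and 6.95 in squamous tissue, and 7.91, 7.94 and 7.58 in spheroids. The gap between the lowest spheroid and the highest tissue array was wider than the spread within any group. NUP62 rose 2.35-fold over ESMG (log2 1.23, SE 0.16; adjusted p 7.42e-05) and 2.14-fold over squamous tissue (adjusted p 0.000164).

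NUP54, its partner in the channel, rose by 0.87 (adjusted p 0.00301) over ESMG and by 0.81 over squamous tissue (adjusted p 0.00486). NUP98 rose by 0.42 (adjusted p 0.0172) and 0.37 (adjusted p 0.0326) in the same order. The NUP98 call against ESMG was lost without ESMG pig 37 or spheroid pig 1 or 3. The call against squamous tissue was lost without squamous pig 37 or 39 or spheroid pig 1 or 3. Both were lost with cyclic loess, and the call against squamous tissue also with quantile normalization.

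On the cytoplasmic side, 1 of the 2 measured genes passed as higher and 1 as lower than in squamous tissue (23.6% and 17.4% of all genes). AAAS (aladin), which is held at the pore's cytoplasmic face, measured 7.05, 7.31 and 7.48 in ESMG, 7.14, 7.74 and 7.42 in squamous tissue, and 8.58, 8.47 and 8.43 in spheroids. Both tissues overlapped and the spheroids lay above them. The rise was 2.32-fold over ESMG (log2 1.22, SE 0.17; adjusted p 0.000173) and 2.09-fold over squamous tissue (adjusted p 0.000447). NUP214, a filament protein that docks export receptors, was lower in spheroids than in squamous tissue by its brighter probe set (-0.55; adjusted p 0.0283), with overlapping arrays. Its other probe set differed by -0.04 there, and the call was lost on the mean of both (-0.29; adjusted p 0.199), with array medians set equal, and without squamous pig 39 or 40 or spheroid pig 1 or 2.

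In the outer ring, which builds the pore scaffold, 2 of 6 genes passed as higher in spheroids in each comparison. These counts are near the 23.9% of all genes against ESMG and the 23.6% against squamous tissue. NUP43 measured 6.40, 6.43 and 6.29 in ESMG, 6.60, 6.37 and 6.61 in squamous tissue, and 7.51, 6.95 and 7.46 in spheroids. Spheroid pig 2 was the lowest of the spheroid arrays and still above all tissue arrays. NUP43 rose by 0.93 over ESMG (SE 0.17; adjusted p 0.000778) and by 0.78 over squamous tissue (adjusted p 0.00256). NUP85 rose by 0.55 (adjusted p 0.00593) over ESMG and 0.45 (adjusted p 0.0195) over squamous tissue, the latter lost without squamous pig 37 or 39 or spheroid pig 3. The other scaffold genes NUP107, NUP133, NUP160 and NUP37 differed from ESMG by 0.23, 0.46, 0.17 and -0.05 and did not pass.

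Of the inner ring, NUP188 measured 8.63, 8.38 and 8.54 in ESMG, 8.74, 8.69 and 8.84 in squamous tissue, and 9.13, 8.94 and 9.20 in spheroids. The 3 groups did not overlap, and NUP188 rose by 0.57 over ESMG (SE 0.13; adjusted p 0.00469), while its difference of 0.34 from squamous tissue did not pass (adjusted p 0.0651). NUP155, in the same ring, differed by -0.23 from ESMG (adjusted p 0.396). NUP50, a basket protein that helps release import cargo, was 0.37 above ESMG and did not pass (adjusted p 0.0732).

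NUP210, a membrane-spanning pore protein known to be made in some cell types only, had a different order. It measured 7.01, 6.45 and 6.34 in ESMG, 6.16, 6.34 and 6.11 in squamous tissue, and 6.75, 6.64 and 6.98 in spheroids. Squamous tissue was lowest, and ESMG and spheroids overlapped. Spheroids were 0.59 above squamous tissue (SE 0.18; adjusted p 0.0228), a call lost without squamous pig 37 or 40 or spheroid pig 1 or 3, and 0.19 above ESMG (adjusted p 0.445). A dimmer probe set of NUP210 gave 0.96 and 0.66 for the same differences.

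NOL4L, which matches the rule by symbol only and is not an established ribosome factor, had the largest difference of the 51 in each of the 3 comparisons of the fit, although NUP62, AAAS and POLR1D came within their errors of it against ESMG. It measured 8.25, 8.32 and 8.13 in ESMG, 7.40, 7.34 and 7.51 in squamous tissue, and 9.28, 9.57 and 9.55 in spheroids, so that no groups overlapped. Spheroids were 2.36-fold above ESMG (log2 1.24, SE 0.14; adjusted p 2.58e-05) and 4.16-fold above squamous tissue (adjusted p 5.64e-07). ESMG were 1.76-fold above squamous tissue (log2 0.82; adjusted p 0.00409). NOL4 was dim, with a level under the lower quartile of its array on all 9 arrays, and differed by 0.24 between spheroids and ESMG (adjusted p 0.237). Without NOL4 and NOL4L, 26 of 49 members passed as higher than in ESMG (23.9% of all genes). Against squamous tissue, 21 passed as higher and 3 as lower (23.6% and 17.4% of all genes).

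Between the tissues, the members tended to be lower in ESMG than in the squamous lining, by little. The median difference was -0.15, against -0.06 over all genes, and 9 members were above 0. In limma's fit, 1 member, NOL4L, passed as higher in ESMG (4.4% of all genes) and 0 as lower (1.65% of all genes). In either direction 0 were called (2.65% of all genes called higher and 0.409% lower). At an unadjusted p under 0.05 in that fit, 9 were lower and 1 higher. The share of all genes at that unadjusted threshold was not computed. All ESMG arrays lay under all squamous arrays for 13 members (25.5%; 11.7% of all genes), 12 of them of ribosome biogenesis, and above them for 2 (9.88% of all genes). The lowest was NOP56, at -0.50 (SE 0.15; adjusted p 0.0734). It passed after quantile normalization (adjusted p 0.0469) and cyclic loess (adjusted p 0.0496).

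Within animals, ESMG were under squamous tissue in each of the 3 pigs for 22 members (43.1%; 20.8% of all genes) and over it in each for 2 (14.7% of all genes). The animals differed. In pig 40, 47 of 51 members were lower in ESMG, with a median of -0.34, while 49% of all genes were lower and their median was 0.01. In pig 37, 31 members were lower, with a median of -0.09 (all genes -0.05 and 56.3% lower), and in pig 39, 26 were lower, with a median of -0.02 (all genes -0.11 and 58.2% lower). Of the 15 nucleoporins, 13 were lower in ESMG of pig 40, 8 in pig 37 and 3 in pig 39. Without the squamous array of pig 40 the median over members was -0.08, against -0.07 over all genes.

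**Figure D4:**
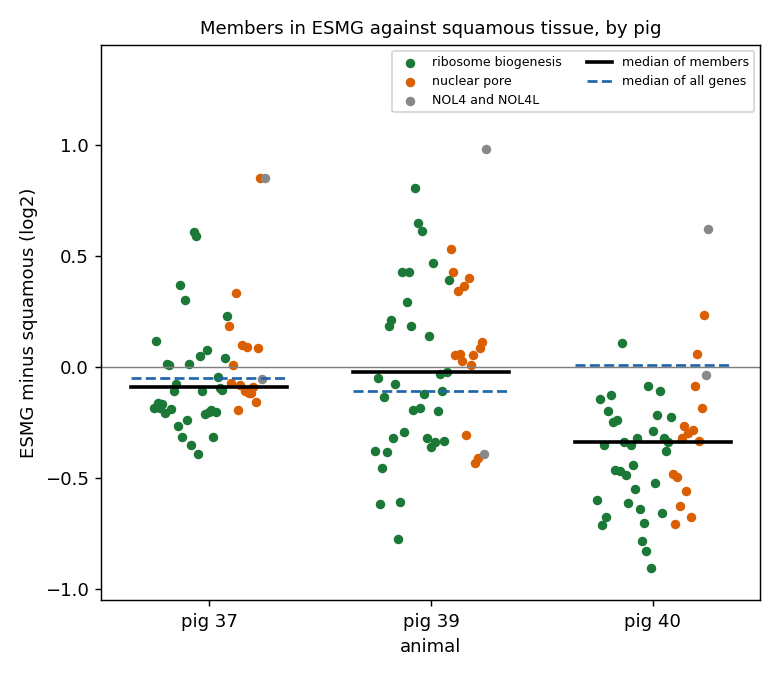
Log2 difference ESMG minus squamous tissue (vertical axis) of each of the 51 genes within pig 37, 39 and 40 (horizontal axis), coloured by ribosome biogenesis, nuclear pore, or NOL4 and NOL4L. The solid bar is the median of the 51 and the dashed bar that of all genes. The bars lie apart in pig 40 (-0.34 and 0.01) and closer together in pigs 37 and 39. In pig 39 the median of the 51 (-0.02) lies above that of all genes (-0.11).

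The plot of within-pig differences shows NOL4L above 0 in all 3 animals and NUP210 likewise. DKC1 was lower in ESMG in each animal and differed by -0.39 (adjusted p 0.187). The ribosome biogenesis members that were lower without array overlap were DKC1, NOP56, POLR1A, NAT10, NOL6, RRP12, UTP6, UTP18, BOP1, GNL3L, NOP2 and PES1, and the pore member was NUP188. Their differences ran from -0.50 for NOP56 to -0.17 for PES1.

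Other genes of the same pathways, taken from fixed lists, were tested in the same fit, in which 23.9% of all genes passed as higher and 17.6% as lower in spheroids than in ESMG, and 23.6% and 17.4% against squamous tissue. Of 55 measured ribosome assembly factors outside the symbol rule, 28 passed as higher than in ESMG and 0 as lower (32 and 0 at an unadjusted p under 0.05 in limma's fit), and 18 passed as higher and 3 as lower than in squamous tissue; their medians were 0.49 and 0.37, against 0.09 and 0.03 over all genes. LYAR, a nucleolar regulator of ribosomal RNA genes, rose 2.96-fold over ESMG (adjusted p 7.16e-05), and NHP2, an H/ACA partner of DKC1, rose 2.46-fold (adjusted p 0.000178). ESF1 rose 2.21-fold (adjusted p 0.0045). NSA2, of the large subunit path, rose 2.13-fold over squamous tissue (adjusted p 9.65e-05). The 3 lower than squamous tissue were MDN1, the giant AAA protein that remodels large subunit precursors (-0.82; adjusted p 0.00915), WDR3 (-0.52; adjusted p 0.0182) and RCL1 (-0.44; adjusted p 0.0226). The calls of WDR3 and RCL1 were lost with array medians set equal and without squamous pig 40, spheroid pig 1 or spheroid pig 2.

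Of 13 measured genes of the RNA exosome, which trims ribosomal RNA ends, 6 passed as higher and 3 as lower in spheroids than in ESMG (23.9% and 17.6% of all genes), and 5 as higher and 2 as lower than in squamous tissue (23.6% and 17.4% of all genes). The lower counts are thus near the share of all genes. EXOSC6, a ring subunit, rose 3.22-fold over ESMG (adjusted p 1.79e-05) and 2.47-fold over squamous tissue (adjusted p 0.000111). C1D, a cofactor, was lower by 1.80-fold (adjusted p 0.000227) and 2.02-fold (adjusted p 6.2e-05). EXOSC7, another ring subunit, was lower by 1.56-fold (adjusted p 0.00692) and 1.73-fold (adjusted p 0.00202). EXOSC9 was 1.39-fold lower than in ESMG (adjusted p 0.0437), a call lost without any 1 array other than ESMG pig 40, squamous pig 39 and spheroid pig 3. That call was also lost with array medians set equal.

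Among 10 transcription factors of RNA polymerase I and of the MYC network, 3 passed as higher and 2 as lower in spheroids than in ESMG, and 2 as higher and 2 as lower than in squamous tissue. These counts are near the shares of all genes, which were 23.9% and 17.6% against ESMG and 23.6% and 17.4% against squamous tissue. MYC, a known activator of ribosome genes, measured 9.34, 9.04 and 10.32 in ESMG, 9.73, 9.76 and 10.15 in squamous tissue, and 10.13, 10.21 and 9.31 in spheroids. These arrays overlapped in all groups, and MYC differed by 0.32 from ESMG (adjusted p 0.463) and by 0.01 from squamous tissue (adjusted p 0.988). The 2 lower genes were MXD1 and MXI1, whose products pair with MAX and oppose MYC at its target sites. MXD1 measured 11.47, 11.42 and 11.86 in ESMG, 11.99, 11.71 and 11.83 in squamous tissue, and 10.00, 10.03 and 9.64 in spheroids; it was 3.23-fold lower than in ESMG (adjusted p 1.24e-05) and 3.88-fold lower than in squamous tissue (adjusted p 3.71e-06). MXI1 was 2.71-fold (adjusted p 2.76e-05) and 2.78-fold (adjusted p 2.15e-05) lower. UBTF, the factor that opens ribosomal RNA genes for polymerase I, rose 1.60-fold over ESMG (adjusted p 0.0011) and differed by 0.32 from squamous tissue (adjusted p 0.0622). MYCN and TAF1D also passed as higher than in ESMG. The MYCN call was lost without ESMG pig 37 or 39 or spheroid pig 1 or 2. The TAF1D call was lost with cyclic loess and without ESMG pig 39 or 40 or spheroid pig 1 or 3.

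**Figure D5:**
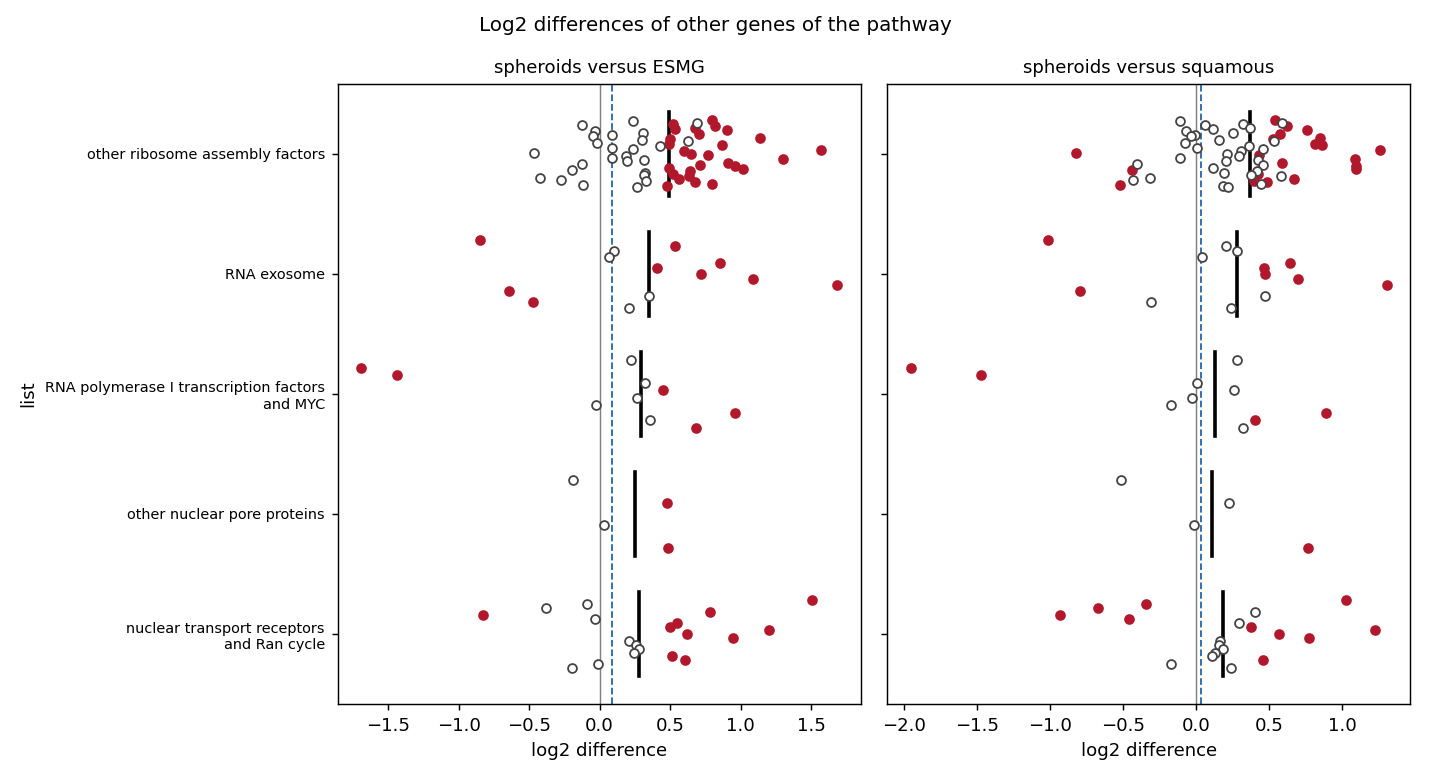
Log2 difference (horizontal axis) of each measured gene of 5 pathway lists (vertical axis) between spheroids and ESMG (left) and between spheroids and squamous tissue (right). Red points passed at an adjusted p under 0.05, black bars are list medians and the dashed line is the median of all genes; the 2 points farthest left in the third row are MXD1 and MXI1.

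The plot of pathway lists ends with the pore and its traffic. Of 4 other pore proteins measured, 2 passed as higher in spheroids than in ESMG and 0 as lower (23.9% and 17.6% of all genes). Against squamous tissue, 1 passed as higher, near the 23.6% of all genes, and 0 as lower (17.4% of all genes). Of 19 nuclear transport receptors and Ran cycle genes, 9 passed as higher and 1 as lower than in ESMG (23.9% and 17.6% of all genes). Against squamous tissue, 6 passed as higher and 4 as lower, near the 23.6% and 17.4% of all genes. IPO4, an importin, rose 2.84-fold over ESMG (adjusted p 1.49e-05) and NXT1, an mRNA export cofactor, 2.30-fold (adjusted p 0.000223). RAN, the GTPase that gives transport its direction, rose 1.54-fold (adjusted p 0.00591) and its partner RANBP1 1.93-fold (adjusted p 0.000404). KPNA5, an importin alpha, was 1.77-fold lower than in ESMG (adjusted p 0.0153), a call lost without ESMG pig 39 or spheroid pig 1 or 2. That call was also lost with quantile normalization. Between ESMG and squamous tissue, 0 of the 101 genes of these 5 lists passed in limma's fit, with 1 higher and 12 lower at an unadjusted p under 0.05.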

How the data were processed

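Total RNA of 9 samples was measured, 3 per group, with groups and pig numbers taken from the titles. The authors deposited log2 RMA values made in Affymetrix Expression Console (full gene-level analysis), per the labels; Transcriptome Analysis Console 3.0 is named without a role, per the submitters' processing notes. The RMA method removes background, evens array distributions and compresses differences near the floor. Of 27558 probe sets, 13157 carried 1 symbol, 523 several, and 13878 were not named; 12841 matched RefSeq (Sscrofa11.1) by gene number. For 881 genes with more than 1 probe set (5 of them members), the probe set of highest average level was used, leaving 12217 genes. NOP10 and POLR1C each have 2 probe sets with identical values.

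A group-means model over all 9 arrays was fitted in limma 3.58.1 (R 4.3.3), with 6 residual degrees of freedom; the median SE of a member's difference was 0.16. The script was tested on simulated data. The members and lists were chosen with earlier results of these data known. Members named with every array included 10 chosen for their roles (NCL, NPM1, NOP56, DKC1, POLR1B, BOP1, NUP62, NUP210, AAAS and NOLC1). Added to these were the members with the largest called changes. The member of each role group with the largest difference between spheroids and ESMG was also named, where at least 2 were measured. Some array levels of WDR75 and GNL3 are given as well. All other members are given by their differences or counts. Pathway genes named beyond the largest changes of a list were chosen after their values were seen. The same animals gave ESMG and squamous tissue, so the pig number pairs these samples; the correlation of paired deviations was 0.42 in pig 37, -0.15 in pig 39 and -0.17 in pig 40. A fit with the pig as a block was run as an alternative, beside other normalizations, filters, probe set rules and leaving out each array. No sequences or coordinates are used here.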

Additional observations from a re-analysis of the deposited data

How the results depend on the processing

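The results were recomputed under 20 other settings, and no difference called in the main analysis changed direction. The median difference of members between spheroids and ESMG (0.55) was 0.67 with array medians set equal, 0.46 with array weights, 0.39 with cyclic loess, 0.46 with quantile normalization and 0.46 with the mean of probe sets, and 0.42 to 0.60 without single arrays; that between spheroids and squamous tissue (0.35) was 0.48, 0.21 with cyclic loess, 0.25 with quantile normalization, and 0.26 to 0.42 without single arrays. Equal medians moved the median of all genes from 0.09 to 0.20 and from 0.03 to 0.16, so the members' distance from it stayed at 0.47 and 0.31; quantile normalization gave 0.32 and 0.14. Members called higher than ESMG numbered 4, but 9 with equal medians, 27 with no fold minimum and 4 to 7 without single arrays; those called higher than squamous tissue numbered 5, but 3 with cyclic loess, 22 with no fold minimum and 4 to 5 without single arrays; with no fold minimum, 3 were lower than squamous tissue and 1 was higher in ESMG than in squamous tissue. By adjusted p alone, counts chosen after seeing the data, lower than ESMG were 2 members with array weights, 3 with cyclic loess and 0 to 2 without single arrays; lower than squamous tissue were 1 with equal medians, 7 with array weights, 6 with cyclic loess, 6 with quantile normalization and 1 to 3 without single arrays; lower in ESMG than in squamous tissue were 2 with array weights, 1 with cyclic loess and 1 with quantile normalization, and higher were 2 with array weights. Except for the main fit and the fit with no fold minimum, shares of all genes under these settings are not given here. These counts therefore cannot be set against a background. The cause of these shifts was not tested. Of the 27 members that passed as higher than ESMG, 23 passed under every alternative with the same adjusted p threshold, as did 13 of the 22 higher than squamous tissue and 1 of the 3 lower (NOP56). With the pig as a replicate block, ESMG against squamous tissue had a median of -0.15 and 0 calls at 2-fold. A block cannot move these differences, since each pig gave both tissues, and 0 members reached 2-fold there without it. Neither value therefore tests the pairing. By adjusted p in limma's fit, which a block can change, 1 member passed as higher and 0 as lower with either block. With the random block, POLR1C no longer passed between spheroids and squamous tissue (adjusted p 0.0553). Precision is limited by 3 arrays per group, and dim genes such as NOL4 carry compressed differences.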

Other observations

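The genes whose levels over the 9 arrays were most like the mean of the members were MDM2 (Pearson r 0.990), C1H9orf78 (0.988), DLGAP5 (0.986), KIF23 (0.982), FAM199X (0.982), PPP3CA (0.982), ACTR2 (0.980) and CKAP2 (0.979), as a description over 9 arrays that share their groups and scaling.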
